A study of Mus musculus with 4 samples.

Results

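The mouse chemokine receptor locus described here is a 500 kb stretch of chromosome 9, chr9:123800000-124300000 in build mm10, and its members are the long non-coding RNA gene Gm51701 and the chemokine receptor genes Ccr1, Ccr3 and Ccr2. It was chosen for its methylation difference between knockout and control germ cells, a gain at the CpG island beside the start of Gm51701 and losses over the receptor genes. The differences in methylation below are therefore descriptions, and no test of them is used as support. The deposited table lists 3713 cytosines of CpG sites in the locus, in 1929 CpGs, of 37230584 over all chromosomes listed. Of these, 2063 had a value in all 4 samples and carry the levels below unless stated. Of 49554 annotated genes, 12 that overlap the locus are described here, 6 of which encode chemokine receptors.

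The samples were male germ cells from testes of 21-day-old mice. There were 2 knockout samples, Np95fl/fl:Stra8-Cre, and 2 control samples, Np95fl/fl, so all 4 carried the floxed Np95 alleles and only the knockouts carried the Cre transgene. The Stra8 promoter drives Cre in premeiotic male germ cells, so the floxed gene is removed there and in the cells that descend from them, and effects of the transgene and of the loss of Np95 cannot be told apart. Whether replicates stem from different animals is not in the labels, so any p-value rests on a spread that may be technical only. Per sample, between 28999710 and 29774194 listed cytosines had a value, each a percentage without its read count, so the depth behind a value is unknown. Germ cells were freed from hand-picked seminiferous tubules and filtered to deplete interstitial cells, and methylation was read by whole genome bisulfite sequencing of libraries whose adaptors were added after conversion. Np95, also called Uhrf1, binds hemimethylated DNA behind the replication fork and recruits the maintenance methyltransferase Dnmt1, so that a methylated CpG stays methylated after the cell divides. Chemokine receptors are G protein-coupled receptors that guide leukocytes along gradients of secreted chemokines, and many of their genes lie side by side, as in this cluster. The receptors of this cluster are known mainly from blood and immune cells.

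The start sequences of 5 genes of the locus show the base composition behind the values that follow, each from 250 bases before to 50 bases after the listed start, taken from RefSeq for GRCm38.p6, the same build as mm10. Capitals mark CG, the CpG site, which reads the same on both strands. Gm51701 is shown because its start lies in the island that was higher in knockouts, Fyco1 because its start is denser in CpGs and was near 0 in every sample, and Ccr1, Ccr3 and Ccr2 because they stand for the CpG-poor receptor genes.
Gm51701, chr9:123924898-123925197, plus strand: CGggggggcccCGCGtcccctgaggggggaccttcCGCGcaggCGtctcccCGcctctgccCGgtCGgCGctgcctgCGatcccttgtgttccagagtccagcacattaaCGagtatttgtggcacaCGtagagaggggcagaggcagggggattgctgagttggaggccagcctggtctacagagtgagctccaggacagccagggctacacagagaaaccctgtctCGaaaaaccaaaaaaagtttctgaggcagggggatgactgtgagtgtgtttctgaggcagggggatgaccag
Fyco1, chr9:123851850-123852149, minus strand: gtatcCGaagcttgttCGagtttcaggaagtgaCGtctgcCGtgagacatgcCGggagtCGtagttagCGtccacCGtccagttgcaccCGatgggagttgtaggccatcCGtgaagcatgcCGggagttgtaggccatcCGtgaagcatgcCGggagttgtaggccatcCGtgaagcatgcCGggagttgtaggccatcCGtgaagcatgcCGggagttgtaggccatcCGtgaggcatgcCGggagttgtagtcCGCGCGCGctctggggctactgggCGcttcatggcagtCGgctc
Ccr1, chr9:123968643-123968942, minus strand: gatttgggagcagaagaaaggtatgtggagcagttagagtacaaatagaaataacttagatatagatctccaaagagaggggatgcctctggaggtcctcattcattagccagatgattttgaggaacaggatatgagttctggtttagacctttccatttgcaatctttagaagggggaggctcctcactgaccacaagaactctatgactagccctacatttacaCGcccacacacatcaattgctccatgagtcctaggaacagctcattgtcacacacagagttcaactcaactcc
Ccr3, chr9:124021721-124022020, plus strand: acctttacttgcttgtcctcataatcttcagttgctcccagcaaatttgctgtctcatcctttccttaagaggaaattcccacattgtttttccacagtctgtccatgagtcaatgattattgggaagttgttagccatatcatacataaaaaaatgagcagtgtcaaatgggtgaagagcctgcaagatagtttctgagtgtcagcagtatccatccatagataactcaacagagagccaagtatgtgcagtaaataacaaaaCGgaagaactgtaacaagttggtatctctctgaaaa
Ccr2, chr9:124101933-124102232, plus strand: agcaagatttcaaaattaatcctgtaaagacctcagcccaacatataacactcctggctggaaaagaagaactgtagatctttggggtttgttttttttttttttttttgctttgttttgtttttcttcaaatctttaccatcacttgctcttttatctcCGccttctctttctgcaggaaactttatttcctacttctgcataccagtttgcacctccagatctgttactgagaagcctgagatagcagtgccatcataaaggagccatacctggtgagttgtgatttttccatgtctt
The Gm51701 sequence holds 14 CpGs, and 36.3% of the 32851 start sequences in the table hold at least as many. Fyco1 holds 25, a density that 18.4% of start sequences reach. Ccr1, Ccr3 and Ccr2 hold 1 CpG each, and 14.1% of start sequences hold no more, against a median of 7. The listed starts of Ccr3 and Ccr2 lie inside the annotated spans of these genes, downstream of the span's first base.

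Over the whole locus the mean level was 37.7% and 37.9% in knockout replicates 1 and 2, against 62.8% and 65.7% in control replicates 1 and 2. The knockout mean of 37.8% ± 0.120 lay 26.5 points below the control mean of 64.2% ± 2.05 (SD, n = 2 each). The level retained in knockouts, the knockout mean as a percentage of the control mean, was 58.8%, against 53.9% over the 22421484 cytosines of the genome measured in all 4 samples. Without the Gm51701 island the locus had 36.8% and 36.8% in knockouts and 68.3% and 71.5% in controls, and the retained level was 52.6%. The island is thus the stretch that sets the average of the locus apart from that of the genome. A level between 0 and 100% in such a mixture can come from all cells being partly methylated or from some cells being wholly methylated, and these cannot be told apart here.

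**Figure D1:**
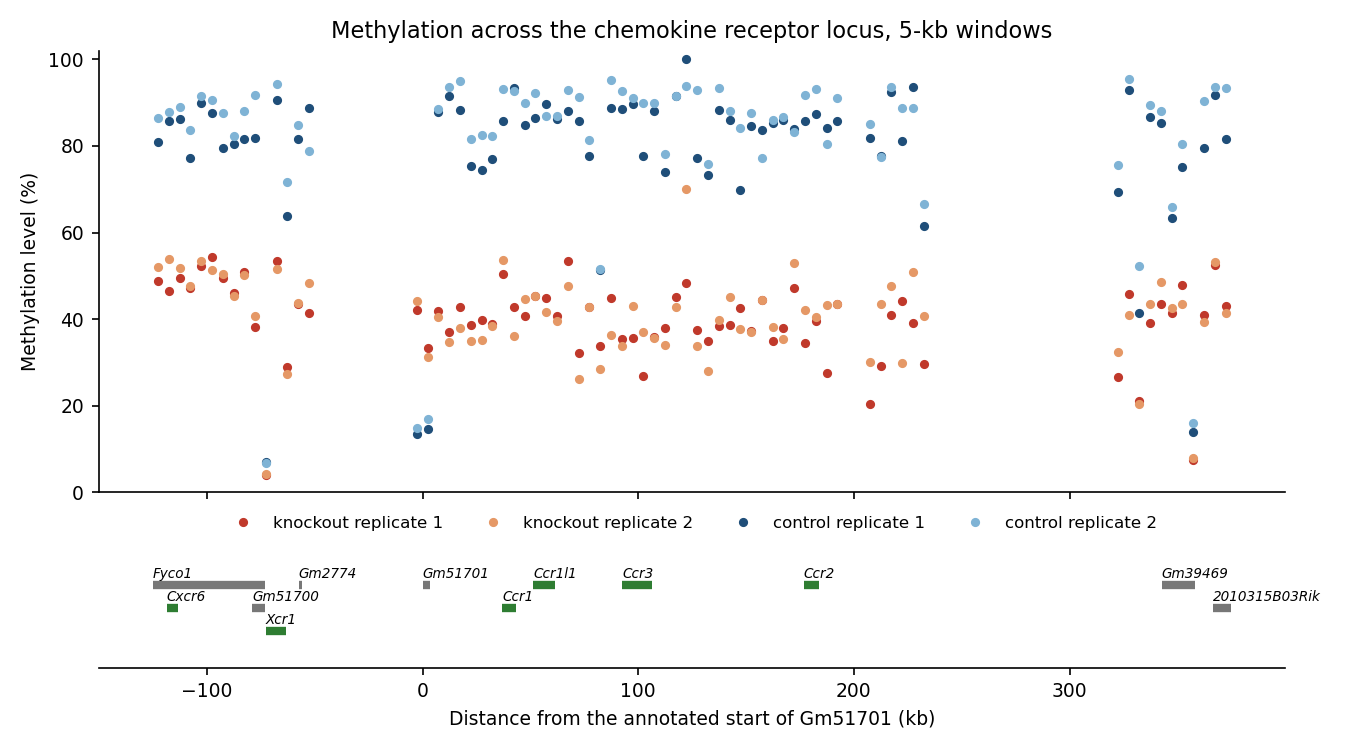
Methylation level in percent (y axis, 0 to 100) of 5-kb windows with a cytosine measured in all 4 samples, where reported, against distance from the annotated start of Gm51701 in kb (x axis). Points are the 2 knockout and 2 control samples and bars below mark genes, with chemokine receptor genes in green; knockout points lie below control points almost throughout and above them in the windows on either side of the Gm51701 start.

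The Gm51701 island ran against the rest of the locus. The island, chr9:123924361-123925849, spans 1489 bp with 94 listed CpGs and overlaps the first 702 bp of the annotated gene, chr9:123925148-123928706 on the plus strand. Over its 180 cytosines measured in all 4 samples, the level was 47.5% and 48.8% in knockouts, against 5.10% and 5.24% in controls. The knockouts were higher by 43.0 points, with means of 48.2% ± 0.932 in knockouts and 5.17% ± 0.0979 in controls (SD, n = 2 each). Among the 16151 CpG islands of the genome this was the largest gain, and the next one was 20.7 points. In the knockouts the island was somewhat above the cytosines of the locus outside its islands, at 40.1% in both samples, whereas in controls it lay far below them, at 75.2% and 78.6%.

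The gain was strongest upstream of the gene. In the 787 bp of the island before the gene start, 103 cytosines had 56.8% and 61.4% in knockouts against 3.57% and 3.96% in controls, a difference of 55.3 points. In the 702 bp inside the gene, 77 cytosines had 35.1% and 32.03% in knockouts against 7.15% and 6.96% in controls, a difference of 26.5 points. The remaining 2857 bp of the gene, after the island, had 31.9% and 29.2% in knockouts against 11.4% and 14.7% in controls, a difference of 17.5 points over 57 cytosines. Over these 3 parts the gain thus became smaller along the direction of transcription, as the knockout level was lower inside the gene and the control level higher past the island. The decline was not steady: the gain was 20.4 points in the 500-bp bin from 123925501 and 24.7 points in the bin from 123927501.

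Single cytosines gave the same picture. Of the 180, 168 (93.3%) were higher in both knockouts than in both controls, a share that was 2.06% over the genome and 3.19% in the rest of the locus. This share is given beside its background only, because the island was chosen on it. Of the 180, 99 were at 0 in both controls, and at each of these both knockouts had at least 10%, with values between 11.9% and 83.5% and a mean of 53.4%. The largest gain was at position 123924780 on the minus strand, with 83.5% and 77.6% in knockouts and 0 in both controls. Intermediate values prevailed in the knockouts: 95.0% and 92.8% of the cytosines lay between 20 and 80% in knockouts, against 11.1% and 9.44% in controls. No cytosine of the island was at 0 in either knockout, whereas 107 and 124 were at 0 in controls.

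The upstream edge of the gain was sharp. Position 123924611, on the plus strand, had 3.23% and 9.09% in knockouts against 26.0% and 32.7% in controls, the largest loss of a single cytosine in the island. The minus strand of this CpG, at 123924612, did not show that loss, with 10% and 2.22% in knockouts against 5% and 0 in controls. At position 123924619, the next CpG on the plus strand, the levels were 62.3% and 60.6% in knockouts and 21.6% and 26.3% in controls. On the minus strand of that CpG they were 50% and 40.9% in knockouts and 5.26% and 0 in controls. From position 123924619 to position 123925026, 96 measured cytosines in a row were higher in both knockouts, with 59.2% and 64.1% in knockouts against 2.06% and 1.84% in controls. This run spans 408 bp and covers every CpG of the Gm51701 start sequence but the last. A further run of 45 cytosines, from 123925248 to 123925506, had 38.5% and 34.8% in knockouts and 7.08% and 5.52% in controls.

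Between these runs a CpG in the Gm51701 start sequence behaved unlike its neighbours. The 28 cytosines of the sequence averaged 53.9% and 64.4% in knockouts and 2.60% and 4.53% in controls. The last CpG of the sequence, at base 229 counted from its 5′ end, had 34.5% and 32.5% in knockouts and 31.1% and 50% in controls on the plus strand. On the minus strand it had 33.3% and 51.1% in knockouts and 23.3% and 33.3% in controls. It was thus partly methylated in all 4 samples, whereas the CpG before it, at base 128, was at 0 on both strands in both controls. The last CpG lies within bases 166 to 235, whose letters recur elsewhere. Just before it, the 20 bases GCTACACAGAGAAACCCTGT stand at bases 207 to 226. They were found, on either strand, in the start sequences of 14 of 27024 other genes (0.0518%). Repeats are not annotated in the tables used here, and how reads from recurring sequence were placed is not given in the sources used here.

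**Figure D2:**
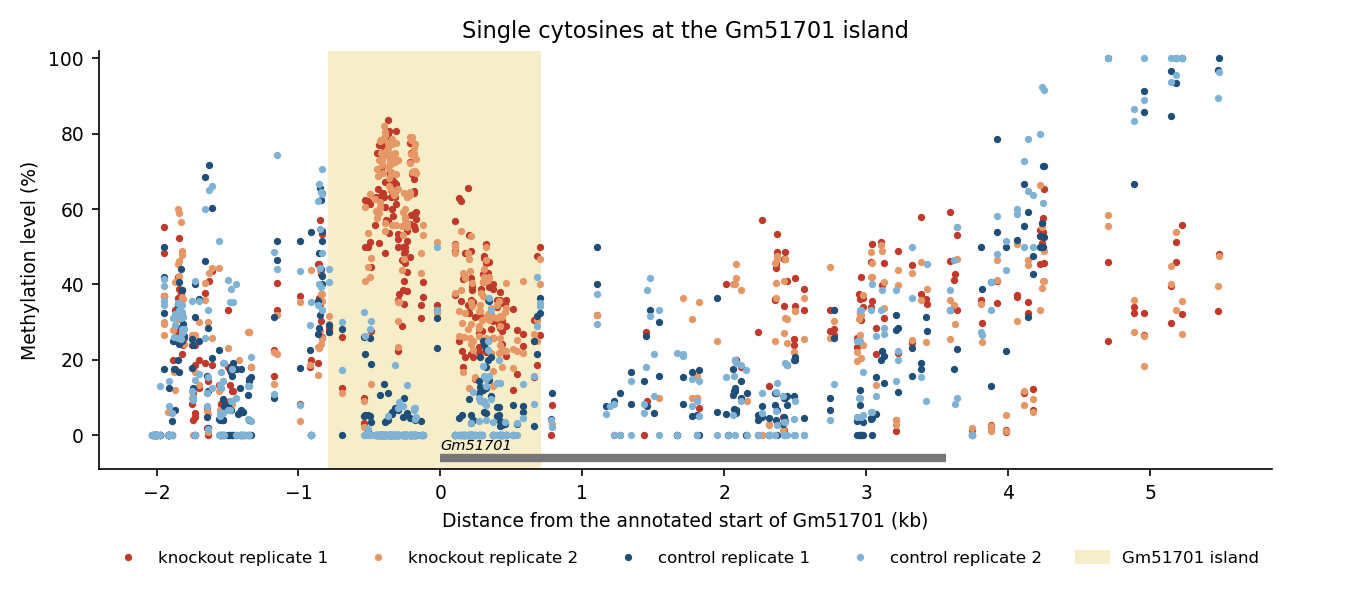
Level in percent (y axis) of single cytosines against distance from the annotated start of Gm51701 in kb (x axis), 1 point per sample and cytosine, with the island shaded and the gene as a grey bar. Inside the island the knockout points lie between about 20 and 80% and most control points at or near 0, and the groups cross downstream of the gene, where controls climb.

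Both strands of the island carried the gain. In knockout replicate 1 the plus strand averaged 43.9% and the minus strand 49.4%, and in knockout replicate 2 they averaged 47.7% and 49.1%. In the controls the strands averaged 4.69% and 5.21% in replicate 1 and 5.18% and 5.74% in replicate 2. The strands are covered by separate reads, so the gain did not rest on reads of 1 strand.

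In 500-bp bins the gain ran over 1500 bp without a break, counting bins in which both knockouts lay at least 10 points above both controls. The bin from 123924501 had 59.1% and 63.5% in knockouts against 2.39% and 2.23% in controls. The next, from 123925001, had 38.2% and 36.6% in knockouts against 7.32% and 6.44% in controls, and the last, from 123925501, had 29.9% and 27.1% in knockouts against 7.46% and 8.80% in controls. A separate bin near the end of the gene, from 123927501, had 34.6% and 30.3% in knockouts against 9.66% and 5.76% in controls. In the 3 bins between, at most 4 cytosines were measured in all 4 samples.

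Beyond the gene, controls climbed above the knockouts. The bin from 123929001 had 27.3% and 28.0% in knockouts against 50.5% and 61.2% in controls, and the bin from 123930001 had 38.6% and 35.0% in knockouts against 90.9% and 95.7% in controls. On the other side, a CpG island 363 bp upstream, chr9:123923116-123923997, had 20.2% and 21.7% in knockouts and 21.9% and 24.5% in controls over 65 of its 116 listed cytosines. Of the 116, 31.9% and 29.3% lacked a value in knockouts, against 0 and 6.03% in controls, and the part of these missing values in its levels was not tested. Of the 363 bp between the islands, 17 cytosines had 33.2% and 26.6% in knockouts against 39.9% and 43.4% in controls.

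**Figure D3:**
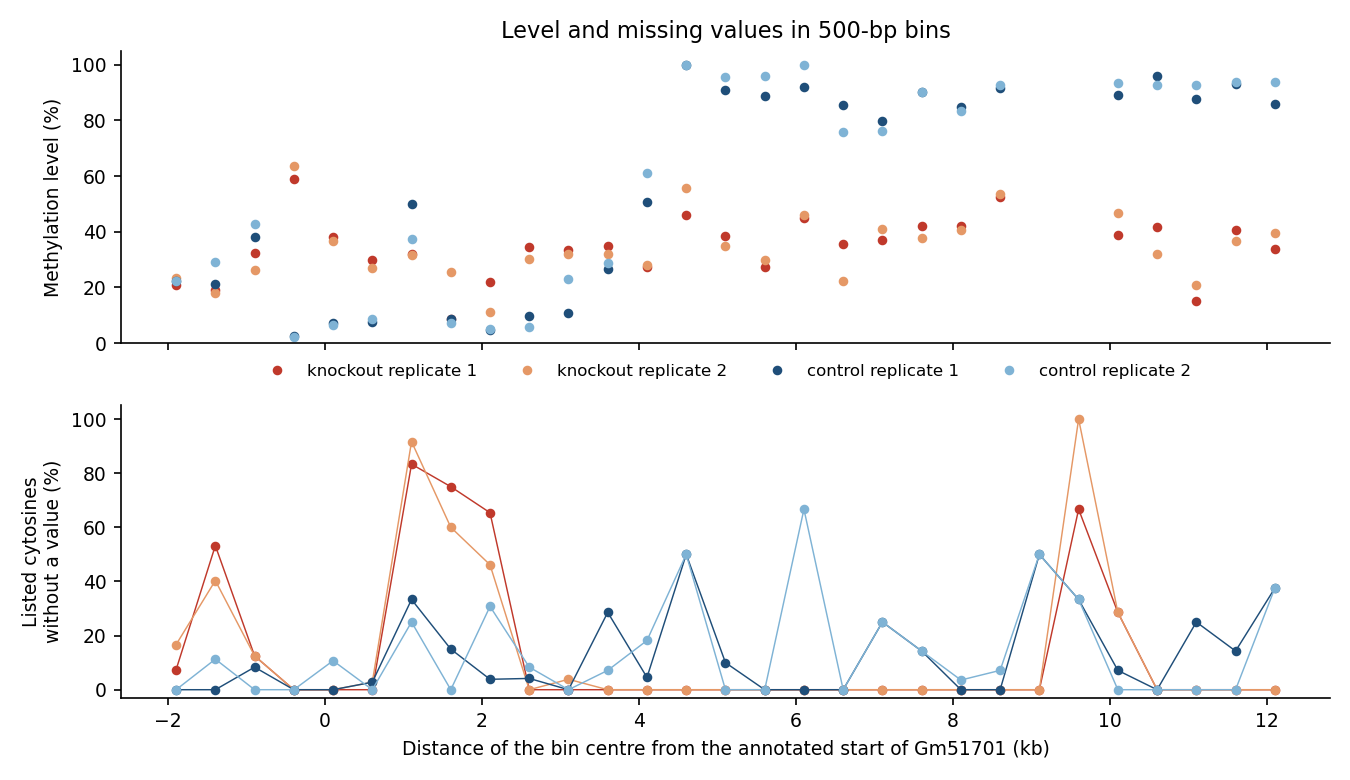
Mean level in percent (top y axis) and percent of listed cytosines without a value (bottom y axis) in 500-bp bins, against distance of the bin centre from the annotated start of Gm51701 in kb (x axis), for 2 knockout and 2 control samples. After the gene, control levels climb to above 80% and knockout levels lie below them. Missing values in knockouts are high just after the island, where few cytosines were measured in all 4 samples. They are high again in the bin from 123934501, which lists 6 cytosines.

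Missing values, which played no part in choosing the locus, were somewhat more frequent in knockouts. Of the 3713 listed cytosines, 26.4% and 25.5% lacked a value in knockouts, against 19.7% and 21.2% in controls. The groups did not overlap, and the difference was 5.52 points (25.9% ± 0.647 in knockouts and 20.4% ± 1.07 in controls, SD, n = 2 each, two-sided exact permutation test p = 0.333). That is the smallest p that 2 samples against 2 can give, so no such difference can pass a threshold of 0.05. Over the genome the shares were 22.1% and 20.7% in knockouts and 20.03% and 20.7% in controls, a difference of 1.01 points (exact permutation test p = 0.667).

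The missing values of the locus were unevenly spread. In the Gm51701 island, 0 and 1 of 188 cytosines lacked a value in knockouts and 1 and 6 in controls. In the part of the gene after the island, 42 and 37 of 114 lacked one in knockouts (36.8% and 32.5%), against 9 and 14 in controls (7.89% and 12.3%), with an exact permutation test p of 0.333. The order turned in the 10 kb after the gene, where 12 and 13 of 200 lacked a value in knockouts, against 26 and 28 in controls (exact permutation test p = 0.333). Over 468221 windows of 5 kb with at least 20 listed cytosines, the difference had a median of 1.10 points and, without the lowest and the highest 5% of windows, ran from -8.51 to 11.9 points. The island had the fewest missing values of these stretches, and the 17.5-point difference in the gene after the island rests on 57 of 114 listed cytosines. The part that missing values play in the levels was not tested.

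Along the locus, 75 of 100 windows of 5 kb held a listed cytosine, and 52 had at least 10 CpGs measured. Of these 52, 48 were called lower in knockouts and 2 higher by limma, with an adjusted p under 0.05 over all windows and a difference of at least 10 points. Over the genome, 95.3% of 393633 windows were called lower and 0.00508% higher, and nothing is read from the counts in the locus, which was chosen on this contrast. Centring each sample on its own genome median took out a median knockout-minus-control difference of -2.97 on the log2 scale of the fit. With it, 8 of the 52 were called lower and 12 higher relative to the sample medians, against 5.01% lower and 25.3% higher over the genome. The 2 windows that were higher adjoin each other at the Gm51701 start. The one from 123920001 to 123925000 had 42.0% and 44.2% in knockouts against 13.5% and 14.8% in controls, the largest gain of any window in the genome. The one from 123925001 to 123930000 had 33.3% and 31.3% in knockouts against 14.5% and 17.0% in controls and had rank 3 among 22 windows that gained at least 10 points.

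Among the 52 windows, the loss was largest a short way downstream of the gain. The window from 123935001 to 123940000, which begins within 10 kb of the Gm51701 island and holds no annotated gene, had 36.9% and 34.6% in knockouts against 91.4% and 93.6% in controls, a difference of -56.7 points, and retained 38.7%. The 48 windows called lower had a median of 42.7% in knockouts and 86.5% in controls, with a median difference of -41.1 points. The 2 windows that were not called were low in all samples. One, from 123850001, holds the start of Fyco1 and had 4.04% and 4.10% in knockouts and 6.97% and 6.79% in controls. The other, from 124280001, lies at the start of Gm39469 and had 7.52% and 7.79% in knockouts and 13.9% and 15.9% in controls.

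Windows on either side of Gm51701 differed in how much they retained. Among windows with at least 80% in controls, the 11 before the gene start had a median of 50.4% in knockouts and 84.8% in controls. Those 11 retained a median of 58.3%, with a range from 52.4% to 60.2%. The 26 after the gene end had a median of 41.3% in knockouts and 88.4% in controls and retained a median of 46.5% and as little as 38.2%. Over the genome, 281991 such windows retained a median of 52.4%. The medians of the 2 sides of the locus thus lay on opposite sides of the genome median. Neighbouring windows share a chromosome stretch and libraries and are not replicates, so this is a description. No cytosine is listed over 50408 bp before the upstream island, from 123872708, nor over 88070 bp from 124161276, so levels there were not analysed here.

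Among the members, the receptor genes were lower in knockouts over their spans. Ccr3, the eotaxin receptor of eosinophils, had 31.6% and 36.0% in knockouts against 83.7% and 91.9% in controls over 51 cytosines of chr9:124017825-124031692. The mean was 33.8% ± 3.08 in knockouts and 87.8% ± 5.76 in controls (SD, n = 2 each), lower by 54.0 points, and 38.5% was retained, the lowest share among the receptor genes described. Both replicates of each group lay far from the other group.

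Ccr2, the Ccl2 receptor that lets monocytes leave the bone marrow, had 39.7% and 40.9% in knockouts against 85.4% and 93.6% in controls over 17 cytosines of chr9:124101918-124109140. The mean was 40.3% ± 0.896 in knockouts and 89.5% ± 5.77 in controls, a difference of -49.2 points, and 45.1% was retained. Ccr1, a receptor for inflammatory chemokines such as Ccl3 and Ccl5 on myeloid cells, had 47.8% and 47.5% in knockouts against 87.3% and 93.0% in controls over 19 cytosines of chr9:123962126-123968692. The mean was 47.7% ± 0.189 in knockouts and 90.1% ± 4.004 in controls, a difference of -42.5 points, and 52.9% was retained. The 3 genes thus differed more from each other in knockouts than in controls, where their means lay within 1 SD of Ccr3.

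Around the listed starts of these genes, from 1000 bp before to 500 bp after, few cytosines could be measured and levels were again lower in knockouts. The 3 cytosines at Ccr3 had 31.8% and 41.6% in knockouts against 97.9% and 92.8% in controls. The 6 at Ccr2 had 32.1% and 33.3% in knockouts against 86.1% and 90.7% in controls, and the 5 at Ccr1 had 43.9% and 39.2% in knockouts against 89.7% and 91.9% in controls. The start windows were about as methylated in controls as the genes themselves, unlike that of Gm51701, where 186 cytosines had 47.3% and 48.0% in knockouts against 7.64% and 8.04% in controls. In the sequences shown, the single measured cytosine of the Ccr1 start had 54.2% and 50% in knockouts against 96.4% and 95.8% in controls, and that of Ccr2 had 53.8% and 33.3% in knockouts against 100% and 87.5% in controls. The one in the Ccr3 sequence had 26.7% and 52.6% in knockouts against 93.8% and 84.6% in controls.

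Other receptor genes of the cluster were lower in knockouts as well. Ccr1l1, a Ccr1-like receptor gene, had 44.3% and 43.4% in knockouts against 86.8% and 89.5% in controls. Cxcr6, the Cxcl16 receptor of T cell subsets, had 47.9% and 56.9% in knockouts against 86.7% and 91.2% in controls, the widest spread between knockouts among the receptor genes described. Xcr1, the Xcl1 receptor of cross-presenting dendritic cells, had 41.9% and 41.0% in knockouts against 75.8% and 77.2% in controls. These 3 genes retained 49.7%, 58.9% and 54.2%, against a median of 54.7% over all genes. Pooled over 6 receptor genes and 248 cytosines, levels were 41.9% and 44.2% in knockouts and 84.1% and 88.6% in controls, a difference of -43.3 points with 49.9% retained.

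In the knockouts these receptor genes were ordered, from low to high, as Ccr3, Ccr2, Xcr1, Ccr1l1, Ccr9, Ccr1 and Cxcr6, where Ccr9, the Ccl25 receptor of gut-homing T cells, lies just outside the locus and had 47.5% and 45.2% in knockouts against 82.0% and 84.2% in controls. Ccr9 and Ccr1 differed by less than the SD of Ccr9, and Ccr1 and Cxcr6 by less than the SD of Cxcr6. In controls the order was Xcr1, Ccr9, Ccr3, Ccr1l1, Cxcr6, Ccr2 and Ccr1, and all but Xcr1 lay within the SD of Ccr3. Among these genes, Ccr3 therefore stood low in the knockouts without standing low in the controls. This was not particular to Ccr3 within the locus: the window from 123935001, without an annotated gene, retained 38.7%, against 38.5% in Ccr3.

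**Figure D4:**
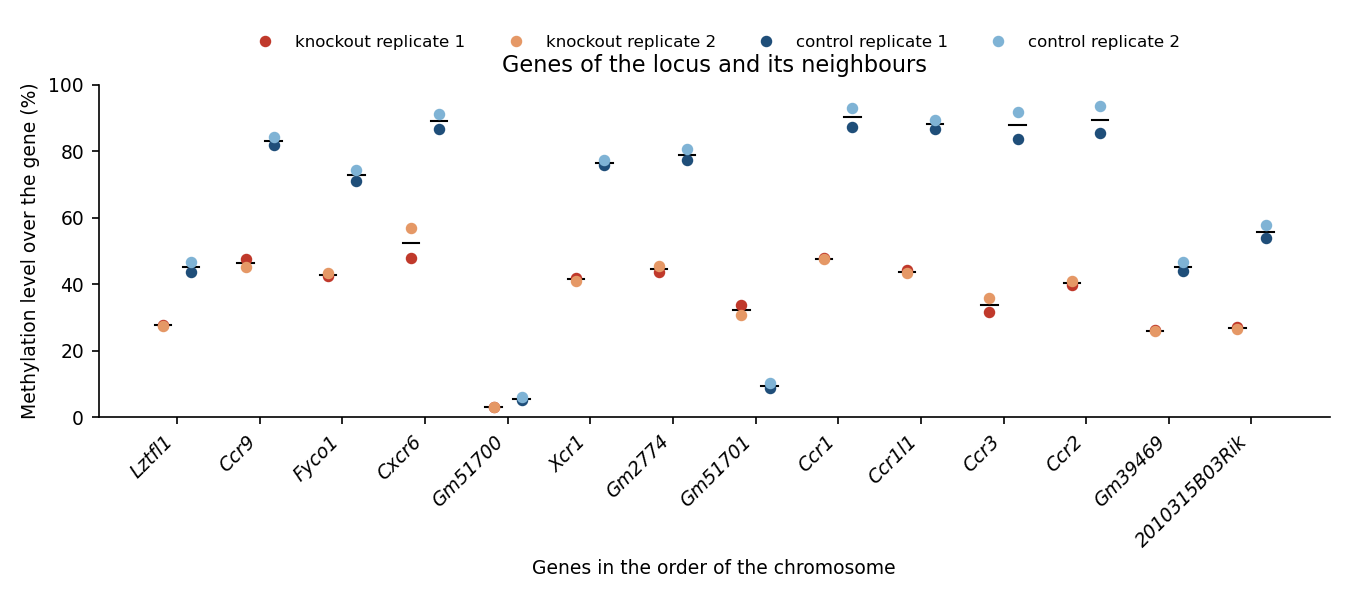
Methylation level in percent (y axis, 0 to 100) over the span of each gene described, including 2 outer neighbours, in chromosome order (x axis), with 1 point per sample, knockouts left and controls right, and a bar at the mean of each pair. Gm51701 is the one gene with knockouts above controls, Gm51700 is low in all samples, and Ccr3 shows the widest gap among the receptor genes.

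Further genes of the locus frame this contrast. Gm51701 as a whole, over 134 of 198 listed cytosines, had 33.8% and 30.8% in knockouts against 8.95% and 10.3% in controls. Its means were 32.3% ± 2.08 in knockouts and 9.60% ± 0.919 in controls (SD, n = 2 each), and the gain of 22.7 points was the largest of 30839 gene spans. Fyco1, which encodes an adaptor for the transport of autophagosomes and whose span contains Cxcr6, had 42.4% and 43.4% in knockouts against 71.1% and 74.5% in controls. Its CpG-dense start is an island, chr9:123851236-123852323, that had 0.667% and 0.738% in knockouts and 0.710% and 1.05% in controls over 127 cytosines. An unmethylated island of the same locus thus showed no gain. Gm51700, a long non-coding RNA gene whose end lies in this island, had 3.15% and 3.21% in knockouts over its span. Controls had 5.22% and 6.01% there. The window at its listed start was not low: 8 cytosines had 37.1% and 38.4% in knockouts against 84.5% and 96.0% in controls. The pseudogene Gm2774 had 43.8% and 45.6% in knockouts against 77.2% and 80.7% in controls, and the protein-coding gene Gm39469 had 26.3% and 25.9% in knockouts against 43.9% and 46.8% in controls. At the far edge, the protein-coding gene 2010315B03Rik had 27.3% and 26.6% in knockouts against 53.9% and 57.8% in controls. Lztfl1, which encodes a regulator of ciliary protein traffic, lies outside the locus, at chr9:123694404-123717625. It had 27.9% and 27.5% in knockouts against 43.6% and 46.8% in controls. In each of these genes except Gm51701 both knockouts lay below both controls. Over the genome 89.6% of 30839 gene spans were called lower, so this is not read as a trait of these genes.

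Of the 3 CpG islands of the locus, 1 was called higher and none lower by limma with the same thresholds, where 0.31% of 16151 islands were called higher and 5.82% lower over the genome. The call of the Gm51701 island rests on the spread shared between islands, and with its own spread alone its adjusted p was 0.147 (limma), where 0 of the 16151 islands were called in either direction and 2048 had an unadjusted p under 0.05. With islands defined by at least 20 CpGs per 500 bp, 1 of the 5 in the locus was called lower and 2 higher, against 35.6% lower and 1.42% higher of 37311 over the genome. Outside the Gm51701 island, 1441 of 1883 cytosines (76.5%) were lower in both knockouts than in both controls, against 77.3% over the genome. The cytosines outside all islands retained 52.2%. Cytosines at 80% or more made up 1.86% and 2.02% of those outside the Gm51701 island in knockouts, against 56.8% and 62.5% in controls.

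Other genes of the chemokine system were lower in knockouts as well. All 7 receptor genes of the cluster described, Ccr9 included, were called lower over their spans, where 89.6% of 30839 gene spans were called lower and 0.0519% higher over the genome. Their median difference was -42.5 points, with medians of 43.8% in knockouts and 88.1% in controls. Of 16 chemokine receptor genes outside the cluster, 15 could be tested, and 11 were called lower and 0 higher, with medians of 40.5% in knockouts and 76.7% in controls and a median difference of -35.7 points. Their retained level had a median of 53.0%, against 52.9% in the cluster. The largest losses were in Ackr2, a scavenger of inflammatory chemokines, at -43.4 points, in Ccr6, a receptor of B and T cell subsets, at -43.1 points, and in the fractalkine receptor gene Cx3cr1 at -42.8 points. The smallest were in Ccrl2, Cxcr1 and Ccr10, at -6.57, -6.30 and -1.69 points, and controls were already low there, with 15.1%, 32.2% and 3.53%.

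Ligands of these receptors followed the same course. Of 15 ligand genes, 14 could be tested and all 14 were called lower, where 89.6% of 30839 gene spans were over the genome. Medians were 44.2% in knockouts and 86.0% in controls, with a median difference of -39.9 points. The largest losses were in Ccl12, Ccl2 and Ccl8, monocyte-attracting ligands that bind Ccr2 in the case of Ccl2 and Ccl12, at -46.1, -44.5 and -43.8 points. The smallest were in Ccl25, Ccl3 and Cxcl16, at -25.6, -21.2 and -11.4 points. The receptor genes of the cluster therefore cannot be called particular in their losses from these counts and medians, whereas all gene spans together had a median difference of -31.4 points.

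The germ cell label was checked by methylation alone. The paternally methylated region 1500 to 5000 bp upstream of H19 had 39.2% and 49.8% in knockouts and 86.7% and 91.9% in controls. The start windows of 5 of 6 maternally methylated imprinted genes averaged 15.3% and 12.4% in knockouts and 18.3% and 15.6% in controls. Over these 5 genes they ranged from 5.93 to 33.3% in knockouts and from 3.96 to 65.3% in controls. In controls the H19 region was high and the maternally methylated genes low on average, the pattern known of the male germ line, although not in every gene. The start windows of 6 germ cell genes had 16.6% and 13.7% in knockouts and 6.55% and 7.15% in controls. Those of 4 of 7 blood cell genes, the cells that use the receptors of the cluster, had 34.3% and 35.3% in knockouts and 65.3% and 69.4% in controls, and ranged over genes from 18.7 to 46.2% in knockouts and from 11.6 to 91.3% in controls. The 1 of 5 Sertoli cell genes that could be measured had 0.993% and 1.25% in knockouts and 0.782% and 1.44% in controls. The 2 of 4 Leydig cell genes had 26.3% and 26.2% in knockouts and 50.7% and 50.95% in controls. The part that other cell types play in the levels of the locus was not tested.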

How the data were processed

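Whole genome bisulfite libraries from 2 knockout and 2 control samples, grouped by their titles, were analysed from 1 table that gives, as deposited by the authors, the percent methylated at each listed cytosine in each sample, with no read counts. The table's name states a minimum of 10 reads. The build is mm10 per the submitters' processing notes, while the software for alignment and methylation calling is not given in the sources used here. Replicates were not pooled.

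A region's level is the mean over its cytosines with a value in all 4 samples, each with equal weight, since depth is unknown and no interval could be computed. A difference is the knockout mean less the control mean, in points of percent. Windows of 5 kb, CpG islands (stretches with 30 or more CpGs listed in 500 bp) and gene spans with at least 10 CpGs measured were fitted over the whole genome with limma 3.58.1 in R 4.3.3 on a log2 scale, log2((m + 0.01)/(1 − m + 0.01)), where m is the fraction methylated, with trended and robust prior variance. Calls required a Benjamini-Hochberg adjusted p under 0.05 and 10 points. The scripts were tested on simulated data. For 98.8% of windows the variance came wholly from that shared between windows. Shares of missing values were compared by exact two-sided permutation tests (SciPy 1.17.1).

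The members and lists were chosen with earlier results of these data known. The genes named are those reported that overlap the locus, Ccr9 and Lztfl1 outside it, and from each list the 3 with the largest and the 3 with the smallest loss. Regions at gene starts ran from 1000 bp before to 500 bp after the RefSeq start (GRCm38.p6), in place of the planned CpG-rich gene ends, because the promoter table gives the strand. H19's strand was taken from general knowledge. One item of the locus is not reported here. Alternatives covered which cytosines, samples, scales, thresholds, window sizes and island definitions were used, and the replicate number as a block.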

Additional observations from a re-analysis of the deposited data

How the results depend on the processing

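The island difference, the pooled receptor gene difference, the extent of the gain and the order of groups in missing values kept their direction under every alternative run. With each sample on its own cytosines the difference over the locus was -29.1 points and that of the island 42.3 points, and with 1 value per CpG they were -29.7 and 42.3 points. Without the Gm51701 island, an alternative chosen after seeing the data, the locus difference was -33.1 points. Leaving out 1 replicate at a time gave -27.9 to -25.0 points for the locus, 42.3 to 43.7 for the island, -45.5 to -41.0 for the pooled receptor genes and 4.77 to 6.28 for missing values, whose difference was 1.01 points over the genome. It left 48 windows called lower and 2 higher, 1 island higher and 0 lower, and an extent of 1500 bp.

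Centring each sample on its median, which takes out a median knockout-minus-control difference of -2.97 on the log2 scale, left 8 of 52 windows lower and 12 higher relative to these medians (5.01% and 25.3% over the genome). Windows called lower numbered 18 with at least 20 CpGs and 19 at 1 kb, where fewer windows could be tested, and those called higher 4 at 1 kb, 1 at 10 kb and 1 at a minimum of 20 points. With at least 20 CpGs per 500 bp, 1 of 5 islands was lower and 2 higher (35.6% and 1.42% over the genome). With each region's own spread alone 0 of 16151 islands were called in either direction (2048 at an unadjusted p under 0.05), and the Gm51701 island had an adjusted p of 0.147 (limma). The extent of the gain was 1250 bp in 250-bp bins, 2000 bp in 1000-bp bins and 1000 bp at 20 points. Whether replicate numbers pair the samples is not in the labels, and the correlation of deviations between the groups over 5-kb windows (0.0556) cannot decide it. With the replicate number as a block 48 windows were lower, 2 higher and 1 island higher. Depth is unknown, and the receptor genes rest on as few as 17 cytosines each.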
